A study of Mus musculus with 6 samples.

Results

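The 39 genes described here are *Myc*, its partner *Max*, the MAX-binding repressor *Mxd4*, and genes of ribosome production, translation and polyamine synthesis. They were chosen by name, with earlier results of these data known, and all 39 are among the 32285 genes counted. They fall into 9 roles, which are the Myc network (3 genes), nucleolar phosphoproteins (4), the box C/D snoRNP (4), the box H/ACA snoRNP (4), the small ribosomal subunit (5), the large subunit (11), RNA polymerase I (2), translation factors (4) and polyamine synthesis (2). The 30 genes outside the Myc network, translation and polyamine roles are called the biogenesis genes. CD8 T cells were sorted as CD45+CD3+CD8+Tomato+ cells from B16-OVA melanomas and from the tumor-draining lymph nodes (LN) of 2 mouse genotypes. The samples are recorded at day 12 after engraftment, and the study's text places the harvest between day 12 and day 15. Controls were CD8-Cre Rosa26Tomato mice, and CD8-IFNγRKO mice (KO) carried the same 2 alleles together with IFNgR1flox/flox, so that the receptor for IFNγ was deleted where the CD8 promoter had driven Cre. Cre and Tomato were therefore common to all groups. Mice were 6 to 10 weeks old by the study's methods and up to 14 weeks by another of its statements. Each tissue and genotype gave 1 single-cell library from 3 pooled mice. The protocol names the same 3 mice of a genotype for tumor and LN. The 2 tumor libraries also had their T cell receptors (TCR) sequenced. With 1 library a group no test between groups was possible, and every interval below is a 95% interval for counting error only, which does not cover differences between mice, sorts or libraries.

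*Myc* encodes a short-lived transcription factor that pairs with MAX and binds E-boxes in DNA. MXD4 competes for MAX and is a repressor. In T cells, *Myc* is induced by antigen receptor signaling and drives the growth that precedes division. Making ribosomes starts in the nucleolus, where RNA polymerase I transcribes ribosomal RNA, box C/D and box H/ACA particles direct its methylation and pseudouridylation, and assembly factors shape the precursors of both subunits. Polyamines, made from ornithine by ODC1 and then by spermidine synthase (SRM), serve translation, among others through the hypusine of EIF5A.

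After the cell filter, 6641 to 8636 cells a library remained, with 28841136 to 93995655 UMIs (unique molecular identifiers, each counting 1 captured RNA molecule). The median was 6308 UMIs a cell in control tumors, 9402.5 in KO tumors, 4051 in control LN and 3863 in KO LN. *Ifngr1*, the targeted gene, was at 718 CPM (a gene's UMIs relative to all UMIs of its library, scaled to the same total in each) in control tumors and 237 CPM in KO tumors, and at 182 and 137 CPM in the LN libraries. It was thus lower in KO cells of both tissues, and RNA outside the deleted exons may still be counted. Libraries shared 51 to 82 barcodes in pairs, at most 1.23% of a library. The summed level of 6 CD8 T cell markers was 5187 to 8489 CPM. That of 12 myeloid markers was 269 CPM in control tumors, 226 CPM in KO tumors and 77.4 to 81.5 CPM in LN. B cell markers reached 241 and 250 CPM in the LN libraries against 7.56 and 18.7 CPM in tumors, and melanoma, NK, erythroid and plasma cell markers stayed below 6 CPM each. Heat shock genes differed with genotype in both tissues, with 7874 against 11951 CPM in control and KO tumors and 7334 against 9348 CPM in LN. Their part in the results was not tested.

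*Myc* (ENSMUSG00000022346, chr15:61985341-61990361 on GRCm38.p6) was higher in KO than in control tumor cells. It was at 42.7 CPM in control tumors (95% interval 41.0 to 44.4), 94.98 CPM in KO tumors (93.0 to 97.0), 208 CPM in control LN and 201 CPM in KO LN. The log2 ratio of KO over control in tumors was 1.14 (1.07 to 1.20), with 1 CPM added to both levels as in all ratios below. Of the 11329 genes with at least 100 UMIs over both tumor libraries, 99.3% had a lower ratio. *Mxd4* went the other way, with 48.4 CPM in control and 27.3 CPM in KO tumors, a log2 ratio of -0.81 (-0.88 to -0.73). *Max*, the partner of both, was at 88.3 and 72.0 CPM, a log2 ratio of -0.29 (-0.34 to -0.24). So the activator was higher and the repressor lower in the KO tumor library, while their shared partner was slightly lower on this scale. On UMIs per cell, described in the next paragraph, the ratio of *Max* turned to 0.09, so its direction depends on the scale.

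All 30 biogenesis genes were higher in KO than in control tumors, with the intervals of all 30 above 0. Their median log2 ratio was 0.51, from 0.08 for *Nop10* to 0.78 for *Rrp9*, beside a median of 0.02 over all 11329 genes. Of these 11329 genes, 58.7% had a lower ratio than *Nop10* and 97.5% a lower ratio than *Rrp9*. The share of all genes with intervals above 0 is not given here, and at this depth small ratios can have such intervals. Of all 39 members, 14 were more than 1.5-fold higher in KO tumors and 1, *Mxd4*, more than 1.5-fold lower. Of all genes with enough UMIs, 5.45% were that much higher and 4.25% that much lower. All 39 members passed the minimum of 100 UMIs. The ratio is on a scale of equal library totals. KO tumor cells held more UMIs each, so that on a scale of UMIs per cell every tumor ratio rises by 0.38 on the log2 scale, for members and for all other genes alike.

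Of the 4 members in the box C/D role, 3 were past the 1.5-fold limit. The role is a list of names and not the whole methylating particle. *Fbl*, the methyltransferase, was at 98.2 CPM in control and 149 CPM in KO tumors (log2 ratio 0.60, 0.55 to 0.64). *Nop56*, a core scaffold protein, was at 53.7 and 87.6 CPM (0.70, 0.64 to 0.75). *Rrp9*, a protein of the U3 particle, was at 15.4 and 27.1 CPM (0.78, 0.67 to 0.88), and the scaffold *Nop58* was at 95.6 and 135 CPM (0.49, 0.44 to 0.53). In the box H/ACA particle the pseudouridine synthase *Dkc1* (32.2 and 53.1 CPM) and *Gar1* (47.2 and 73.8 CPM) passed the limit. *Nhp2* was at 123 and 180 CPM, just below it. *Nop10*, the smallest protein of the same particle, was at 164 and 173 CPM, so that 3 of the 4 subunits had ratios of 0.55 to 0.70 and the other one 0.08 (0.04 to 0.12).

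Among the nucleolar phosphoproteins, *Npm1* was at 975 CPM in control and 1306 CPM in KO tumors and *Ncl* at 336 and 449 CPM, both with a log2 ratio of 0.42. *Nolc1*, a chaperone of snoRNPs, had the largest ratio of the role (0.67, 0.62 to 0.73), and the nucleolar GTPase *Gnl3* was at 0.41. The catalytic subunits of RNA polymerase I, *Polr1a* and *Polr1b*, were at 10.5 and 4.81 CPM in control tumors and at 16.0 and 8.75 CPM in KO tumors (log2 ratios 0.56 and 0.75, intervals 0.43 to 0.69 and 0.57 to 0.93). Levels are not divided by gene length and are compared only within a gene. *Nop56*, *Nhp2*, *Dkc1*, *Bop1*, *Wdr12*, *Gnl3*, *Tsr1*, *Eif5a* and *Nat10* overlap another coding gene, and *Npm1*, *Eif4e*, *Eif5a* and *Eef2* have near-identical pseudogenes, so reads of these members could be shared or lost.

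The 11 large-subunit genes ran from 0.19 (0.11 to 0.26) for *Rrs1* to 0.67 (0.59 to 0.76) for *Nop16*, and 4 of them passed 1.5-fold, namely *Nop16*, *Nop2*, *Wdr12* and *Rrp1b*. BOP1, PES1 and WDR12 form 1 complex that is needed for the large subunit. Their genes differed in ratio, with 0.42 for *Bop1*, 0.23 for *Pes1* and 0.61 for *Wdr12*. *Mrto4*, with 53.8 and 81.1 CPM (0.58), lay just inside the limit of 0.585 on the log2 scale that 1.5-fold gives. The assembly factors *Ppan* (0.49) and *Nip7* (0.34) and the RNA helicase *Ddx21* (0.29) also lay inside it. The 5 small-subunit genes stayed within the limit, from 0.31 for *Wdr43* to 0.54 for *Nat10*, the enzyme that acetylates 18S ribosomal RNA, with *Tsr1* (0.39), *Nop14* (0.42) and *Utp20* (0.49) between them.

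The 2 polyamine genes parted. *Srm* was at 44.3 CPM in control and 87.7 CPM in KO tumors, the second largest ratio of the members (0.97, 0.91 to 1.03). *Odc1*, the rate-limiting enzyme of the pathway, was at 491 and 463 CPM (-0.08, -0.11 to -0.06), and its ratio was 0.29 on UMIs per cell. Translation factors also spread, with the RNA helicase *Eif4a1* at 211 and 343 CPM (0.70, 0.67 to 0.73) and *Eif5a* at 771 and 1133 CPM (0.56, 0.54 to 0.57). The cap-binding protein *Eif4e* (105 and 115 CPM) and the elongation factor *Eef2* (1885 and 2107 CPM) had ratios of 0.13 and 0.16.

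**Figure D1:**
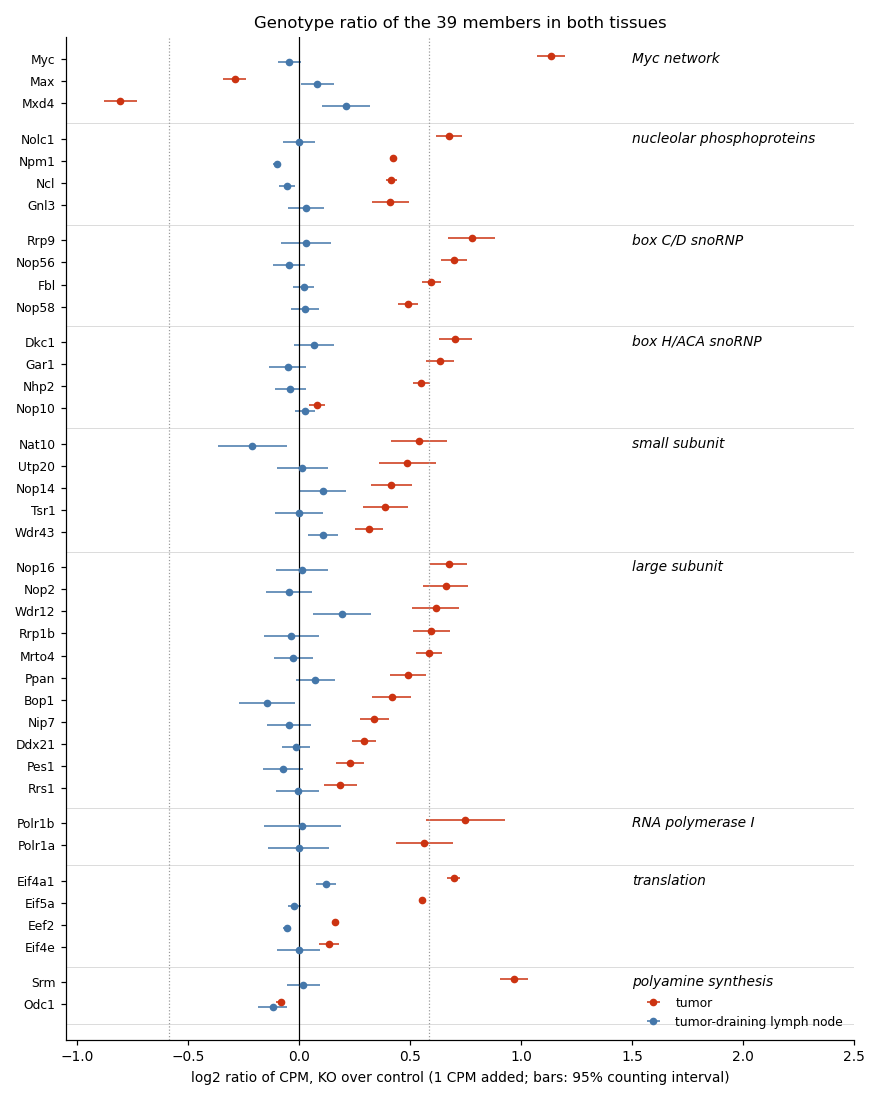
Log2 ratio of KO over control CPM (x axis, 1 CPM added) for the 39 members grouped by role, in tumor (red) and LN (blue), each point 1 library over 1 library with its 95% counting interval; dotted lines mark 1.5-fold. In tumor 36 members lie above 0 and *Max*, *Mxd4* and *Odc1* below (*Max* and *Odc1* lie above 0 on UMIs per cell), while in LN all 39 lie between -0.21 and 0.21.

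In the LN the same members were at similar levels in both genotypes. None of the 39 was more than 1.5-fold higher or lower, where 0.198% of the 10080 genes with enough UMIs were higher and 0.456% lower. The median log2 ratio of KO over control was -0.00 over the members and 0.02 over all genes. *Myc* had a ratio of -0.04 (-0.10 to 0.01) and *Srm* of 0.02 (-0.06 to 0.09). The largest LN ratios were those of *Mxd4* (0.21, 0.10 to 0.32) and *Nat10* (-0.21, -0.37 to -0.05), both of the opposite sign to tumor. The genotype ratios of the 2 tissues come from 4 separate libraries, and their difference was not tested.

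Tumor cells had less of most members than LN cells, relative to all UMIs. *Myc* was lower in tumor than in LN cells by 2.26 on the log2 scale in controls (ratio -2.26, -2.32 to -2.19) and by 1.08 in KO (-1.08, -1.12 to -1.03). In controls, 23 members were more than 1.5-fold lower in tumor and 2 higher, where 23.2% of 10913 genes were lower and 25.8% higher, and the median was -0.80. In KO, 15 members were lower and 4 higher, where 24.7% of 11287 genes were lower and 27.8% higher, and the median was -0.26. Both tissue comparisons rest on different libraries, so their difference was not tested. Ribosomal protein genes were at 332149 and 321125 CPM in control and KO LN against 197919 and 195938 CPM in tumors, and they enter the totals by which this scale divides. On UMIs per cell, which adds 0.89 in controls and 1.34 in KO to the ratio of every gene, the members' medians were 0.094 and 1.08 beside 0.90 and 1.37 over all genes. The members' medians thus lay below those of all genes on both scales, and the sign of their tissue ratios is relative to the scale.

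Within the KO mice, several biogenesis genes were at similar levels in both tissues relative to all UMIs. This holds for that scale only, since on UMIs per cell every KO ratio of tumor over LN rises by 1.34. *Ncl* was at 449 CPM in KO tumors and 442 CPM in KO LN (ratio of tumor over LN 0.02, -0.01 to 0.05), and *Gar1* at 73.8 and 74.8 CPM (-0.02, -0.09 to 0.05). *Npm1* and *Nop58* had ratios of -0.09 and -0.08. Other members were lower in KO tumors than in KO LN, among them the small-subunit factor *Utp20* with 15.4 and 40.6 CPM (-1.35, -1.45 to -1.24) and *Polr1b* with 8.75 and 16.6 CPM (-0.86, -1.003 to -0.707). Also relative to all UMIs, a few members had the opposite order, higher in tumor than LN in both genotypes. *Odc1* had 491 CPM in control and 463 CPM in KO tumors, and in LN its levels were 136 and 126 CPM (1.84 in controls and 1.88 in KO). *Eif4e* had 105 and 115 CPM in tumors against 58.8 and 58.7 CPM in LN. *Eif5a* (0.25 and 0.83) and *Nhp2* (0.14 and 0.73) were the other two.

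**Figure D2:**
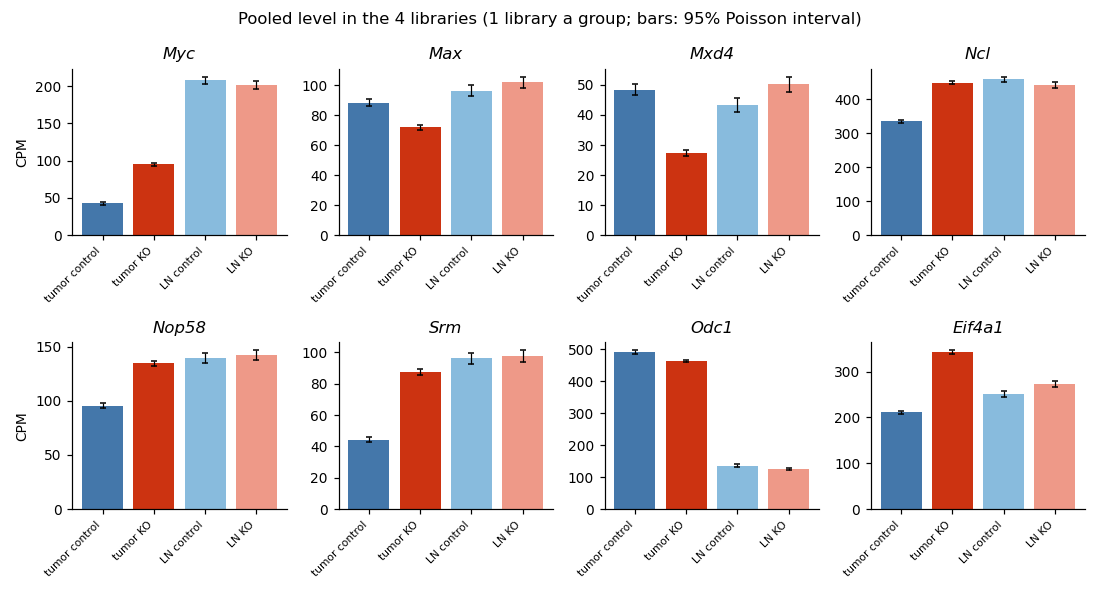
Pooled level (y axis, CPM, from 0) of 8 members in the 4 libraries, with 95% Poisson intervals. *Myc* is at 208 and 201 CPM in LN against 42.7 and 94.98 CPM in tumors; *Mxd4* is lowest in KO tumors at 27.3 CPM; *Odc1* is above 460 CPM in both tumors and below 140 CPM in both LN libraries.

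Other genes of the same pathways were taken from lists of known names. Of all genes with enough UMIs, 5.45% were more than 1.5-fold higher in KO tumors and 4.25% lower. Among further Myc network genes, 15 of the 18 found in the files had enough UMIs, 1 was more than 1.5-fold higher in KO tumors (*Ruvbl2*, 42.4 and 65.9 CPM, ratio 0.62) and 1 lower (*Mxd1*, 147 and 95.7 CPM, -0.61). *Mxd1* encodes a repressor of the family of MXD4, and *Mnt*, another MAX-binding repressor, was at 15.3 and 11.6 CPM (-0.38, -0.49 to -0.26). *Ruvbl1*, the ATPase partner of RUVBL2, was at 38.2 and 56.3 CPM (0.55). The median of these 15 was -0.02.

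Further small-subunit factors had a median ratio of 0.26, with 1 of 45 past 1.5-fold (*Wdr75*, 0.66) and *Heatr1* next at 0.54; the lowest were *Riok1* (-0.16) and *Ddx52* (-0.12). Further large-subunit factors had a median of 0.29, with 2 of 45 past the limit (*Mybbp1a*, 0.62, and *Noc2l*, 0.61), and *Nsa2* (396 and 296 CPM, -0.42) and *Nop53* (-0.21) at the other end. Over all genes, 5.45% were past the limit higher and 4.25% lower. Of 31 genes of RNA polymerases I and III and of 48 translation factors none passed, with medians of 0.11 and 0.22. Among their extremes were *Polr2f* (0.40), *Brf1* (-0.08) and *Polr3d* (-0.10) in the first list and *Eif4ebp1* (0.56), *Eif3b* (0.52), *Eif1* (-0.20) and *Eif3f* (-0.26) in the second. The 11 further polyamine genes had a median of -0.04, with *Ahcy* at 0.71, *Mtap* at 0.31, *Smox* at -0.13 and *Oaz2* at -0.21.

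Nucleotide synthesis genes, which supply the building blocks of RNA and DNA, had a median of 0.58. Of these, 14 of 28 were more than 1.5-fold higher in KO tumors with none lower, where 5.45% of all genes were higher and 4.25% lower. *Shmt1* was at 12.3 and 30.1 CPM (1.23, 1.11 to 1.34), while *Ctps2* (-0.14) and *Adss* (-0.07) were lowest. Among S phase genes 28 of 43 were past the limit higher in KO tumors, and among G2/M genes 18 of 54. Genes shared between these lists and the nucleotide list were not counted, so the counts are not separate results. More KO than control tumor cells had high S and G2/M counts (42.8% against 20.1%, by the classes described below). The nucleotide ratios are given over all tumor cells only. In LN, *Mthfd2* of the nucleotide list was lower in KO by more than 1.5-fold (-0.60). No gene of the other pathway lists passed the limit in either direction, where 0.198% of all genes were higher and 0.456% lower.

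MYC and MAX bind the E-box CACGTG, a palindrome that reads the same on both strands. Promoter windows of RefSeq on GRCm38.p6, from 250 bases before to 50 bases after a gene start, were at hand for 33 of the 39 members. The E-box was in a window of 11 of these 33 genes (33.3%), against 8.09% of 27025 genes with such windows and 8.91% of the protein-coding ones. When only the bases before the start were read, the shares of members and of all genes were 18.2% and 6.86%. The compared genes were not limited to those with enough UMIs, as all members were. The share among such genes was not counted. The 4 stretches shown are those that lie wholly before the annotated gene, with the E-box in capitals, written 5′ to 3′ on the strand of the gene.
Mxd4, chr5:34187894-34187959, minus strand: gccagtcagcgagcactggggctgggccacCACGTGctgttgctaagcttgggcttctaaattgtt
Nop2, chr6:125131793-125131858, plus strand: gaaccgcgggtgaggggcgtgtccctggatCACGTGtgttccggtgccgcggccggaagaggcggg
Eef2, chr10:81176558-81176623, plus strand: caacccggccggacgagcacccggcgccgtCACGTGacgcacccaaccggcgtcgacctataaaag
Eif4a1, chr11:69672577-69672642, minus strand: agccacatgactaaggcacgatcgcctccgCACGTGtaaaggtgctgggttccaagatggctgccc

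These 4 genes ranged from the lowest to the upper end of the tumor ratios, with *Mxd4* at -0.81, *Eef2* at 0.16, *Nop2* at 0.66 and *Eif4a1* at 0.70. The 11 members with an E-box in a window had a median log2 ratio of KO over control in tumors of 0.31, and the 22 members whose windows held none had 0.56. These sets differ in role. The 11 are *Max*, *Mxd4*, all 4 translation factors, *Nop2*, *Pes1*, *Wdr43*, *Utp20* and *Tsr1*, and the 22 are biogenesis genes and *Odc1*. Role and E-box were not told apart. The letters in a window are a description and show no binding.

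At 1600 UMIs a cell, to which every cell was thinned so that depth was equal, 5.23% of control tumor cells (335 of 6402; exact binomial interval 4.70 to 5.81) and 12.2% of KO tumor cells (1017 of 8358; 11.5 to 12.9) had a *Myc* UMI. In LN the shares were 24.2% and 23.6%. Cells with 2 or more *Myc* UMIs made up 0.640% of control and 2.08% of KO tumor cells. Genes that T cells should lack were seen far less often at the same depth, with *Lyz2* in 0.0149% to 0.172% of cells and *Cd79a* in none of the tumor cells (0 of 6402 control cells, which allows a share of up to 0.0469%). Thinning left out 701 control and 278 KO tumor cells and 237 control and 41 KO LN cells with too few UMIs. *Myc* is sparse at this depth, and most cells without a UMI cannot be called negative.

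Cells of the same tumor library with a *Myc* UMI held more biogenesis RNA than cells without one. The summed level of the 30 genes was 2312 CPM in control tumor cells with no *Myc* UMI, 2674 CPM with 1 and 3445 CPM with 2 or more (intervals 2282 to 2343, 2529 to 2826 and 3011 to 3925). In KO tumors the levels were 3112, 3632 and 4389 CPM (3080 to 3144, 3531 to 3735 and 4147 to 4643). In both libraries the level therefore stepped up with each class, without overlap of intervals. The class with 2 or more held only 41 control and 174 KO tumor cells. Of its control cells 26.8% had a *Tcf7* UMI, against 2.74% of control cells with no *Myc* UMI. These levels do not hold that share constant. In LN the steps were small, from 4029 to 4140 and 4212 CPM in controls and from 3902 to 4056 and 4192 CPM in KO. The summed log2 ratio of cells with over cells without a *Myc* UMI was 0.26 (0.18 to 0.34) in control tumors, 0.27 (0.23 to 0.31) in KO tumors, 0.05 (0.01 to 0.08) in control LN and 0.07 (0.04 to 0.10) in KO LN. Without *Npm1*, which gave the most UMIs of the 30, the tumor ratios were 0.28 and 0.30.

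**Figure D3:**
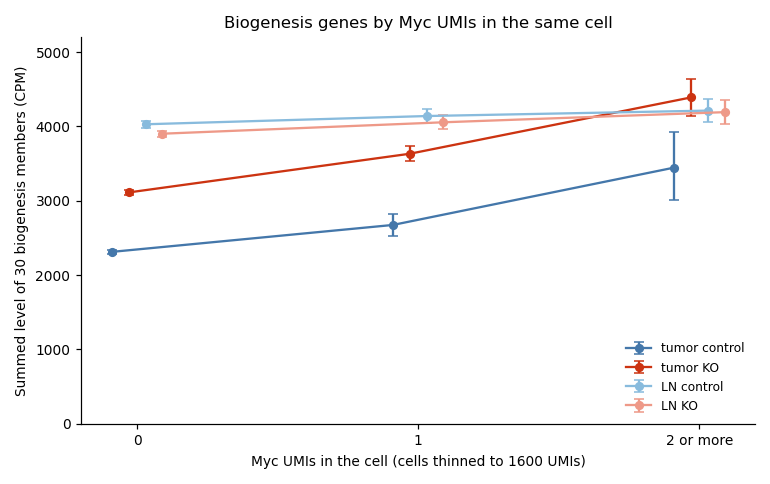
Summed level of the 30 biogenesis genes (y axis, CPM, from 0) in cells with 0, 1 or 2 or more *Myc* UMIs (x axis) at 1600 UMIs a cell, in the 4 libraries, with 95% Poisson intervals. Tumor lines climb from 2312 to 3445 CPM in controls and from 3112 to 4389 CPM in KO, and the LN lines stay between 3902 and 4212 CPM. The class with 2 or more *Myc* UMIs holds 41 control and 174 KO tumor cells.

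Gene by gene, the members other than *Myc* with enough UMIs had a median log2 ratio of 0.24 (35 of 38) between control tumor cells with and without a *Myc* UMI and of 0.26 (38 of 38) in KO tumors, beside 0.00 and -0.00 over all genes with at least 100 UMIs. In controls 5 members were more than 1.5-fold higher and none lower, where 4.82% of 7536 genes were higher and 6.9% lower. These were *Nop58* (136 and 85.5 CPM, 0.67), *Gar1* (0.71), *Mrto4* (0.80), *Ppan* (0.74, 0.07 to 1.34, turning to -0.22 at 1000 UMIs a cell) and *Srm* (63.4 and 33.0 CPM, 0.92, 0.38 to 1.43). In KO, *Gnl3* (50.4 and 31.7 CPM, 0.65, 0.30 to 1.00) was past 1.5-fold higher and *Mxd4* (20.9 and 36.8 CPM, -0.79, -1.31 to -0.30) lower, where 1.38% of 8207 genes were higher and 2.19% lower; in another random draw no member was that much lower. *Srm* was at 96.5 and 68.0 CPM there (0.50, 0.24 to 0.74). *Odc1* had a ratio of 0.00 in controls and 0.01 in KO, and *Eef2* of -0.03 and -0.00. The intervals of these ratios reached at most 0.18 on the log2 scale for *Odc1* and 0.07 for *Eef2* above 0 in either library, and -0.18 and -0.12 below it. In LN the 38 members had medians of 0.05 and 0.06, with none past the limit. There 0.498% of all genes were higher and 0.727% lower in controls, and 0.278% and 0.65% in KO.

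Several other features moved with the *Myc* UMI. In control tumors, 26.2% of the cells with 1 *Myc* UMI and 19.5% of those with 2 or more were in the high cell cycle class described next, against 19.8% of cells with none, and the shares with a *Tcf7* UMI were 2.72%, 26.8% and 2.74%. In KO the high-class shares were 45.6%, 40.8% and 42.6% and the *Tcf7* shares 6.88%, 10.9% and 4.96%. The cells' own UMI totals before thinning had medians of 8556.5, 4857 and 6874 in controls and 9747, 8022.5 and 9723 in KO, in the same order. When cells were binned into 4 equal parts by their own UMI total, the summed ratio lay between 0.08 (-0.10 to 0.25) and 0.41 in controls and between 0.17 and 0.47 in KO.

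Cell cycle classes were set from the summed UMIs of 97 S and G2/M genes at 1600 UMIs a cell, as low (at most 4), middle (5 to 14) and high (15 or more). The high class held 20.1% of control and 42.8% of KO tumor cells and under 0.5% of LN cells, and 25.8% of control and 18.3% of KO tumor cells lay next to a bound. A class is a range of a continuous count, not a cell type. Biogenesis genes were higher with each class in both genotypes, from 2095 to 2404 and 2739 CPM summed in control tumors and from 2650 to 3205 and 3456 CPM in KO tumors. The log2 ratio of the high over the low class was 0.39 (0.34 to 0.43) in controls and 0.38 (0.34 to 0.42) in KO. *Srm* (1.24 and 0.79), *Nop56* (1.09 and 0.82) and *Eif4a1* (0.89 and 0.83) had large ratios in both genotypes. In controls 14 of the 33 members with enough UMIs were more than 1.5-fold higher in the high class and 1, *Mxd4*, lower, where 11.4% of all genes were higher and 8.74% lower. In KO 11 of 38 were higher and 1, again *Mxd4*, lower, where 13.9% of all genes were higher and 9.55% lower.

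*Myc* itself showed no such order. It was at 38.2 CPM in the low, 33.9 CPM in the middle and 45.8 CPM in the high class of control tumors, and at 103, 90.4 and 96.0 CPM in KO tumors. The log2 ratios of high over low were 0.25 (-0.12 to 0.62) and -0.10 (-0.30 to 0.11). *Mxd4* was much lower in the high class, from 60.3 to 22.9 CPM in controls (-1.36, -1.82 to -0.93) and from 59.0 to 18.8 CPM in KO (-1.60, -1.94 to -1.26).

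Within each class the KO tumor cells had more *Myc* and more biogenesis RNA than control cells. The log2 ratios of KO over control for *Myc* were 1.40 (1.13 to 1.68) in the low, 1.39 (1.10 to 1.68) in the middle and 1.05 (0.74 to 1.38) in the high class. For the 30 summed genes they were 0.34 (0.30 to 0.38), 0.41 (0.38 to 0.45) and 0.34 (0.29 to 0.38), beside 0.45 (0.43 to 0.47) in all thinned tumor cells. In the low class 5 of 35 members with enough UMIs were more than 1.5-fold higher in KO and 0 lower, where 4.04% of all genes were higher and 3.21% lower. *Srm* was at 21.0 and 43.7 CPM in the low class (1.02, 0.64 to 1.41) and at 51.1 and 76.3 CPM in the high class (0.57, 0.26 to 0.89). *Mxd4* differed, since its ratio was -0.03 (-0.31 to 0.25) in the low class, -0.63 (-0.91 to -0.35) in the middle and -0.27 (-0.74 to 0.24) in the high class. The lower *Mxd4* of KO tumors was therefore not seen among cells with few cell cycle UMIs, unlike the higher *Myc*.

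Tumor cells without any *Myc* UMI also differed by genotype. Their 30 biogenesis genes summed to 2312 CPM in control and 3112 CPM in KO tumors, a log2 ratio of 0.43 (0.40 to 0.45), against 0.44 (0.35 to 0.53) among cells with 1 *Myc* UMI and 0.35 (0.14 to 0.56) among cells with 2 or more. Because a cell without a UMI at this depth can still hold *Myc* RNA, this does not hold *Myc* constant. Within a class, cells with a *Myc* UMI exceeded those without by 0.20, 0.36 and 0.16 in the low, middle and high class of controls (intervals 0.07 to 0.33, 0.23 to 0.48 and 0.01 to 0.30). In KO the same ratios were 0.51, 0.33 and 0.12 (0.42 to 0.60, 0.27 to 0.40 and 0.06 to 0.18).

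TCF7 marks stem-like CD8 T cells, and the study also counts *Tcf7* among naive-like markers. The split used the *Tcf7* UMI alone, so it does not tell such cells apart. At 1600 UMIs, 2.89% of control and 5.28% of KO tumor cells had a *Tcf7* UMI, against 58.3% and 57.2% of LN cells. *Myc* was higher in these tumor cells, at 125 CPM against 35.6 CPM without a *Tcf7* UMI in controls (log2 ratio 1.78, 1.26 to 2.27) and 154 against 92.2 CPM in KO (0.74, 0.44 to 1.02). In controls the biogenesis genes were higher too, with 3226 against 2310 CPM (0.48, 0.39 to 0.58). Of the control cells with a *Tcf7* UMI, 3.78% were in the high cell cycle class, against 20.5% of those without. The part of cycling in this difference was not tested. *Gnl3* (64.2 and 26.4 CPM), *Wdr43* (91.2 and 46.8 CPM) and *Fbl* (169 and 87.5 CPM) had ratios of 1.25 (0.51 to 1.91), 0.95 (0.338 to 1.501) and 0.94 (0.50 to 1.35), resting on 19, 27 and 50 UMIs in the *Tcf7* UMI cells. In controls 12 of the 36 members with enough UMIs were more than 1.5-fold higher with a *Tcf7* UMI and 1 lower, where 13.9% of all genes were higher and 25.7% lower. In KO 1 of 39 was higher and 2 lower, where 12.6% of all genes were higher and 22.6% lower. In KO tumors the summed levels were 3258 and 3187 CPM (0.03, -0.03 to 0.09). Without *Npm1* the ratios were 0.40 (0.28 to 0.53) in controls and -0.11 (-0.19 to -0.03) in KO.

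Between genotypes, the tumor cells with a *Tcf7* UMI had nearly equal biogenesis levels. The log2 ratio of KO over control of the 30 summed genes was 0.01 (-0.10 to 0.12) in them, from 185 control and 441 KO cells, and 0.46 (0.44 to 0.49) in the cells without. *Myc* had a ratio of 0.30 (-0.24 to 0.88) in the former and 1.35 (1.18 to 1.52) in the latter. In the low cell cycle class alone the summed ratios were -0.04 (-0.19 to 0.10) with and 0.33 (0.28 to 0.37) without a *Tcf7* UMI. In the LN they were -0.06 and -0.02. Median UMI totals before thinning were 3650 and 3899 in the *Tcf7* UMI cells and 7049 and 10097 in the others, and depth moved with this split. Heat shock genes were at 7203 and 13097 CPM in the *Tcf7* UMI cells of control and KO tumors, and at 7652 and 12025 CPM in the cells without, and their part in these results was not tested.

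**Figure D4:**
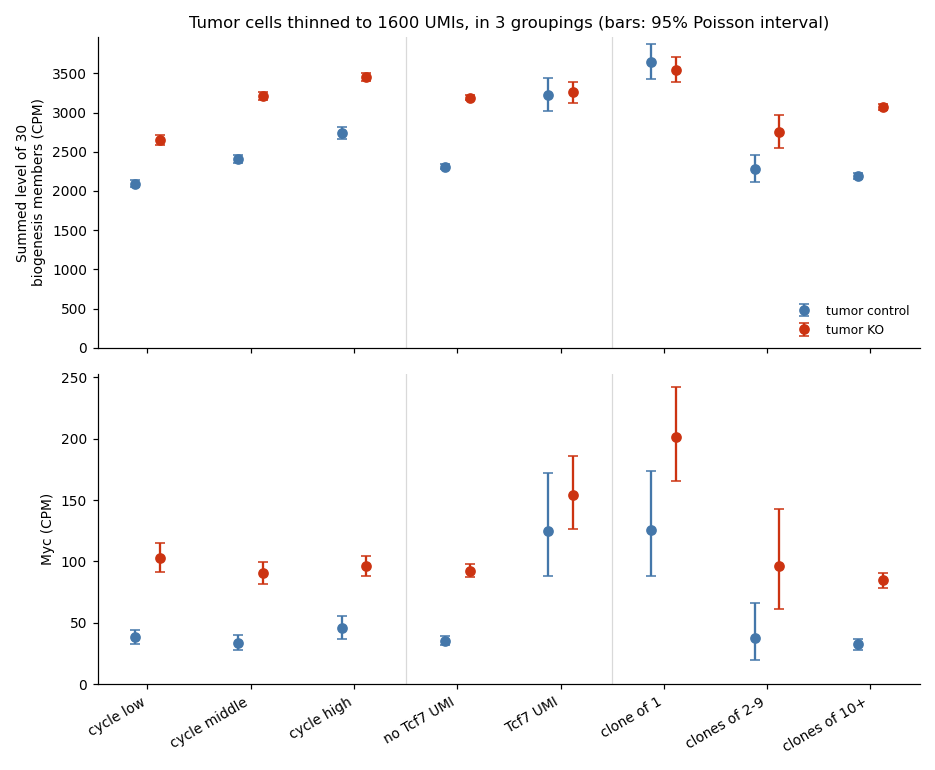
Summed level of the 30 biogenesis genes (upper panel) and of *Myc* (lower panel), both in CPM from 0, in control (blue) and KO (red) tumor cells by cell cycle class, *Tcf7* UMI and clone size, with 95% Poisson intervals. KO points lie above control points in all cell cycle classes, in cells without a *Tcf7* UMI and in clones of 10 or more cells, and the summed intervals overlap in *Tcf7* UMI cells and in cells with an unshared TCR.

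Clones were defined as tumor cells of 1 library with the same V gene, J gene and CDR3 in both the TCRα and the TCRβ chain. By the summed level of the 30 genes, cells whose TCR pair no other cell shared had the most biogenesis RNA. They were at 3642 CPM in 179 control cells and 3549 CPM in 351 KO cells. The log2 ratio of KO over control was -0.04 (-0.15 to 0.07). Clones of 2 to 9 cells had 2282 and 2752 CPM (0.27, 0.12 to 0.42) and clones of 10 or more had 2190 and 3067 CPM (0.49, 0.46 to 0.52). In controls the large clones were thus below the unshared cells by 0.73 on the log2 scale (-0.73, -0.82 to -0.64), and in KO by 0.21 (-0.21, -0.28 to -0.14). Without *Npm1*, unshared and large-clone cells were at 2203 and 1334 CPM in controls. In KO they were then at 2071 (1954 to 2193) and 1925 CPM (1896 to 1954). KO cells without a complete TCR pair were at 2156 CPM (2111 to 2203) by this measure, so the unshared KO cells were not the highest. Of the 32 control members with enough UMIs, 1 was more than 1.5-fold higher and 17 lower in large clones, where 24.8% of all genes were higher and 11.7% lower. Of 38 in KO, 2 were higher and 4 lower, where 28.8% and 13.3% of all genes were. *Myc* was also highest in the unshared cells, with 126 CPM against 37.9 and 32.4 CPM in controls and 201 CPM against 96.2 and 84.6 CPM in KO. Unlike the summed genes, *Myc* was higher in KO among unshared cells (log2 ratio of KO over control 0.67, 0.13 to 1.26). Its ratio was 1.32 (0.28 to 2.45) in clones of 2 to 9 cells and 1.36 (1.13 to 1.59) in those of 10 or more. The unshared cells overlap the *Tcf7* cells, since 41.9% of them in controls and 52.7% in KO had a *Tcf7* UMI, against 0.781% and 1.14% of cells in large clones. Cells without a complete TCR pair, 2184 in controls and 2479 in KO, had 2491 and 3436 CPM (0.46, 0.42 to 0.50). *Odc1* was at 663 CPM in control and 436 CPM in KO unshared cells (log2 ratio of KO over control -0.60, -0.88 to -0.32). In large clones it was at 534 and 466 CPM (-0.20, -0.26 to -0.13).

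Single large clones showed the genotype difference as well. There were 16 control and 23 KO clones with at least 30 thinned cells. Their summed biogenesis levels ran from 1705 to 3529 CPM with a median of 2140 CPM in controls, and from 1982 to 4741 CPM with a median of 3052 CPM in KO. Of the 23 KO clones, 22 lay above the control median, and 1 of the 16 control clones lay above the KO median. That control clone, with 34 cells, had 64.7% of its cells in the high cell cycle class, the largest share of any of these clones. *Myc* ran from 0 to 56.8 CPM (median 36.5) in control clones and from 23.1 to 170 CPM (median 79.8) in KO clones. Of the KO clones, 20 of 23 lay above the control median, while none of the 16 control clones lay above the KO median. The highest control value rests on 3 *Myc* UMIs (11.7 to 166 CPM) and the lowest KO value on 2 (2.80 to 83.6 CPM). The place of such clones against a median is therefore uncertain. The KO clone with the most *Myc*, with 132 cells and 170 CPM (119 to 236), had 4366 CPM of biogenesis RNA, the second highest of all 39 clones, and 30.3% of its cells in the high class.

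Clones of 1 genotype share a library and its pooled mice, and they are not replicates. Without the largest clone of each library the log2 ratio of the summed genes was 0.41 (0.38 to 0.43), and between the largest clones it was 0.68 (0.62 to 0.74). Across clones, the Pearson correlation of *Myc* with the summed level was -0.13 over the 16 control clones and 0.66 over the 23 KO clones, and that of the high-class share with the summed level was 0.80 and 0.39. The points of a correlation share library and depth, and *Myc* rests on 0 to 53 UMIs in the control clones.

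**Figure D5:**
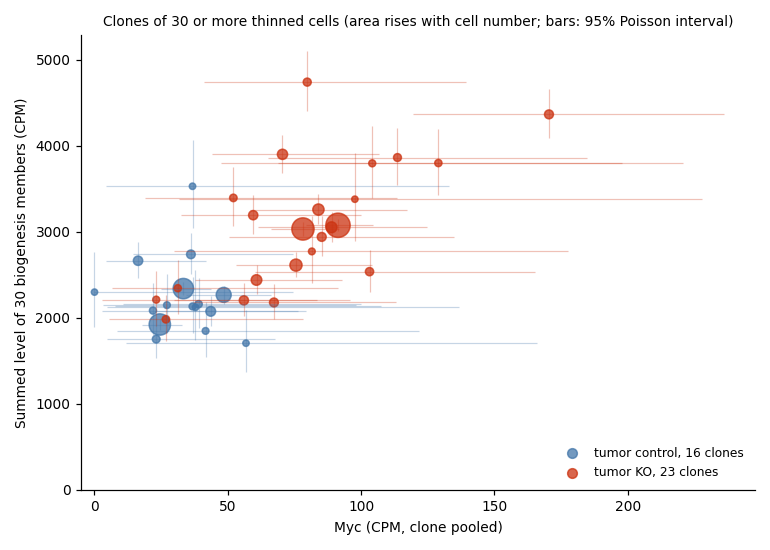
Summed level of the 30 biogenesis genes (y axis, CPM, from 0) against *Myc* (x axis, CPM) in 16 control and 23 KO tumor clones of 30 or more thinned cells, point area rising with cell number, with 95% Poisson intervals. The 2 largest clones of each library lie at 1922 and 2339 CPM in controls and at 3076 and 3033 CPM in KO.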

How the data were processed

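Sorted CD8 T cells were profiled by 10x 5′ single-cell RNA-seq, with the TCR in tumors. Per the submitters' processing notes, the authors aligned reads to mm10 with Cell Ranger 6.0.0 and deposited raw UMI counts per gene and cell, and the deposited TCR contigs with UMI counts per contig. The cell filter asked for 200 to 6000 detected genes, a mitochondrial share of 3% or less, no single gene over 20% of a cell's UMIs, and detection of *Cd2*, *Cd8a* and *Cd8b1*. Doublets were not removed. Counts were pooled by library, and log2 ratios were taken with 1 CPM added, for genes with at least 100 UMIs over both groups. Within-library splits used cells thinned to 1600 UMIs with seed 57. Intervals (95%, exact Poisson, binomial or conditional binomial) cover counting error only. Groups came from the GEO labels, with 1 library a group and no test. The members and lists were chosen with earlier results of these data known. All members were named; of each pathway list, the 2 highest and the 2 lowest ratios were named, except where a result is not reported here. Scripts, tested on simulated data, ran in Python 3.11.15 (matplotlib 3.10.9, pandas 2.3.3, scipy 1.17.1, numpy 2.4.6). The alternatives tried were other cell filters, scalings, pseudocounts, minimum counts, fold limits and thinning depths.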

Additional observations from a re-analysis of the deposited data

Results flagged for a closer look

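For 7 members the log2 ratio of KO over control had opposite signs in tumor and LN, with both intervals apart from 0. How many of all genes meet this rule was not counted, so the 7 are only listed. At this depth the intervals of abundant genes are narrow, and small ratios can meet the rule. The difference between tissues was not tested, since each rests on 1 library a group. *Max* and *Mxd4* were lower in KO tumors and higher in KO LN. *Max* had -0.29 in tumor and 0.082 in LN (on UMIs per cell its tumor ratio was 0.09, so that both ratios of *Max* were above 0). *Mxd4* had -0.81 in tumor and 0.21 in LN. The other 5 were higher in KO tumors and lower in KO LN. *Ncl* had 0.42 in tumor and -0.056 in LN, and *Npm1*, the other abundant nucleolar protein, 0.42 and -0.10. *Bop1* had 0.42 and -0.15, and *Nat10* 0.54 and -0.21. The elongation factor *Eef2* had 0.16 and -0.057.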

How the results depend on the processing

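No paired analysis was possible because each group was 1 library, so that groups share fewer than 2 replicate numbers, and no replicate could be left out. In LN the medians and counts for genotype held under all alternatives run. Shares over all genes under the alternatives are not given in this section, so its counts show only how the member counts move. For genotype in tumor, UMIs per cell gave a median of 0.87 with 32 members higher and 0 lower. That scale adds 0.38 to the tumor ratio of every gene, so the share of all genes past the limit moves too. With 10 CPM added the median was 0.39 and 5 were higher, and a 2-fold limit gave 1 higher and 0 lower. Among alternatives added after seeing the data, thinned cells without the largest clone gave 0 lower, and the low cell cycle class gave a median of 0.35, 5 higher and 0 lower (of 35 members with enough UMIs). On UMIs per cell, 2 tumor genotype ratios within 1.5-fold changed sign, *Max* (0.09) and *Odc1* (0.29), as did 11 of the LN ratios, and no ratio past 1.5-fold did.

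For tumor over LN in controls, UMIs per cell reversed the median to 0.094, with 8 higher and 5 lower, and changed the sign of 16 members, 5 of them past 1.5-fold before, namely *Npm1* (0.29), *Nop10* (0.069), *Gar1* (0.19), *Wdr12* (0.094) and *Rrs1* (0.27). Leaving ribosomal protein, mitochondrial, TCR and heat shock genes out of library size gave -1.08 and 1 higher, the cells' own CPM -0.88, 10 CPM added -0.60, and a 2-fold limit 1 higher and 14 lower. In KO, UMIs per cell gave 1.08, 28 higher and 0 lower, and changed the sign of 27 members, 14 of them past 1.5-fold before, namely *Myc* (0.27), *Mxd4* (0.49), *Fbl* (0.67), *Nop10* (0.57), *Nop2* (0.53), *Nop14* (0.57), *Wdr43* (0.31), *Rrp9* (0.68), *Polr1a* (0.61), *Polr1b* (0.49), *Ddx21* (0.69), *Gnl3* (0.20), *Ppan* (0.55) and *Tsr1* (0.50). The reduced library size gave -0.52 and 2 higher, leaving out the 8% of cells with most UMIs -0.36, the cells' own CPM -0.39, and a 2-fold limit 1 higher and 4 lower. By construction, UMIs per cell adds 0.89 in controls and 1.34 in KO to every tissue ratio, of members and other genes alike.

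For cells with against without a *Myc* UMI, medians ranged from 0.20 to 0.34 in control and from 0.24 to 0.47 in KO tumors. Counts moved more. In controls, thinning to 1000 UMIs gave 9 higher, 1 lower and *Ppan* reversed at -0.22; 3000 UMIs gave 3 higher; 2 or more *Myc* UMIs against 0 gave 13 higher and 6 lower; the mean over 4 equal bins of the cells' own UMIs gave 4 lower; a 2-fold limit gave 0 higher. In KO, thinning to 1000 or to 3000 UMIs gave 0 lower; another draw gave 3 higher and 0 lower; 2 or more *Myc* UMIs gave 12 higher; the mean over cell cycle classes gave 4 higher; leaving out the 8% of cells with most UMIs gave 3 higher; a 2-fold limit gave 0 higher and 0 lower. The cause was not tested. The E-box share of all genes was 6.86% in the bases before the start. Depth limits the values of single members in small groups of cells, such as the 41 control and 174 KO cells with 2 or more *Myc* UMIs.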
